A study of Mus musculus with 6 samples.

Results

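The Schlafen genes are a family of growth-regulatory and antiviral genes that sits in a single cluster on mouse chromosome 11. The members described here are Slfn1, Slfn2, Slfn3, Slfn4, Slfn5, Slfn8 and Slfn9, chosen by name and found in the count table through their Ensembl identifiers, and they make up 7 of its 55335 genes. They were measured by total RNA-seq in BMDMs, macrophages grown from the bone marrow of C57BL/6 mice. The mice were young adult males, and the marrow cells were grown for 6 d with L929-conditioned medium before treatment. Both groups are labelled wild type in their library names, share this strain and culture, and differ in the agent given for 1 h, which was PBS in 3 control libraries (PBS) and LPS, the bacterial lipopolysaccharide, in 3 treated libraries (LPS). The comparison asks what LPS did to the RNA of macrophages at an early time. The labels number the libraries of each group 1 to 3 and call the number a batch. They do not say whether the libraries came from separate animals or cultures, so the p-values measure the spread between these libraries, which may be technical.

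Schlafen proteins share an N-terminal domain and are sorted by length. Slfn1 and Slfn2 belong to the short group, Slfn3 and Slfn4 to the intermediate group, and Slfn5, Slfn8 and Slfn9 to the long group, whose proteins carry an additional helicase-like region. The family was first described in developing T cells, where members restrain proliferation, and many of its genes are known to be induced by type I interferon, the cytokine that LPS-treated macrophages make through TLR4. Several Schlafen proteins cut or bind tRNA, which links the family to the control of translation during stress and viral infection.

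The 7 genes lie within chr11:82951349-83215154 of GRCm38 (GENCODE M21 annotation), a stretch of 263806 bp, in the order Slfn5, Slfn9, Slfn8, Slfn2, Slfn1, Slfn4 and Slfn3. Slfn9 and Slfn8 are on the minus strand and the other 5 on the plus strand. Slfn4 ends 1113 bp before Slfn3 begins, while the other neighbouring members are separated by 10327 to 52515 bp. The members with the largest changes are in the right-hand portion of this map, where Slfn2 (chr11:83065112-83070678) is followed by Slfn1 (chr11:83116849-83122670), Slfn4 (chr11:83175186-83190216) and Slfn3 (chr11:83191330-83215154). On the left are Slfn5 (chr11:82951349-82964840), Slfn9 (chr11:82978390-82991830) and Slfn8 (chr11:83002158-83020810).

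**Figure D1:**
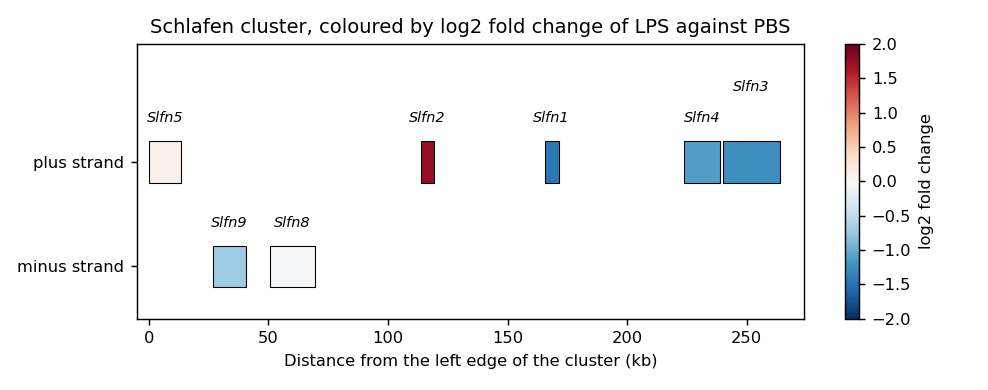
Map of the 7 Schlafen genes, with the distance from the left edge of the cluster in kb on the x axis and the strand on the y axis. Each box is a gene from start to end, coloured by its log2 fold change of LPS against PBS, and Slfn2 (1.73) is the one deep red box, beside Slfn1 (-1.45), Slfn4 (-1.12) and Slfn3 (-1.24) in blue.

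Sequences in front of some of these genes are shown because certain pairs of members share stretches of letters there. The longest shared runs were 20 bases for Slfn8 with Slfn9 and 15 bases for Slfn1 with Slfn4. Slfn3 and Slfn5, which are not shown, shared at most 11 bases (Slfn3 with Slfn2) and 8 bases with any other member. Each line gives the 250 bases before the RefSeq start of the gene (GRCm38.p6), 5′ to 3′ on the strand of the gene. Capitals mark matches, on either strand, to 4 short patterns: the kB pattern GGGANTTCC read by NF-kB, the pattern NAGGAAGT read by ETS factors such as PU.1, the AP-1 pattern TGANTCA, and the interferon response pattern known as ISRE, which is GAAA, 2 free bases and GAAA. Slfn2, which rose, is at chr11:83064862-83065111 on the plus strand. Slfn1 and Slfn4, which fell, are at chr11:83116570-83116819 and chr11:83174936-83175185 on the plus strand. Slfn8 and Slfn9, neighbouring long members, are at chr11:83020811-83021060 and chr11:82991831-82992080 on the minus strand.
Slfn2: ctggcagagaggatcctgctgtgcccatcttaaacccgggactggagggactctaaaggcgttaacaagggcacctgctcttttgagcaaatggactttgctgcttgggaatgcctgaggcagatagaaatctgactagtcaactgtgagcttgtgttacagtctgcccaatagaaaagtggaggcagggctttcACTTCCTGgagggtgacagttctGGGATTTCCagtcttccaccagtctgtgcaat
Slfn1: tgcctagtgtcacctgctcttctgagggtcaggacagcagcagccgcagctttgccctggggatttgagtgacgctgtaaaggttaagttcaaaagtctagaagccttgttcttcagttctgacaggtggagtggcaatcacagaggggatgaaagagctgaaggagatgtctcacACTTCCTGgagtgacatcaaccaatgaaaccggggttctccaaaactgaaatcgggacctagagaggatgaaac
Slfn4: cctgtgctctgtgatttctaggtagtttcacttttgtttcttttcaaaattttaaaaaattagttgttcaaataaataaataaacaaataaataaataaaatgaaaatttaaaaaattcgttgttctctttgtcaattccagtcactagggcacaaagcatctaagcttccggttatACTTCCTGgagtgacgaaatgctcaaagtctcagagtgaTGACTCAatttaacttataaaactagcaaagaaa
Slfn8: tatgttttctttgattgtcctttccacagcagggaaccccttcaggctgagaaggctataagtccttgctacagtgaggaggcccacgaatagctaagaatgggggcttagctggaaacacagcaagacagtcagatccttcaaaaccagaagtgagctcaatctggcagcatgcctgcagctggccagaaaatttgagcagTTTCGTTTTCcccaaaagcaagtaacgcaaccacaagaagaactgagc
Slfn9: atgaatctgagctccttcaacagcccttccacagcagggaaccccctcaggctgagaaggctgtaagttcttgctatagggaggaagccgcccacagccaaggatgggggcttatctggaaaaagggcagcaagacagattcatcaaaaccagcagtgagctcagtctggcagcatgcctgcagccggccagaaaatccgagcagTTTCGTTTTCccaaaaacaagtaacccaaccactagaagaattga

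Of the 7 members, the ETS pattern was found before Slfn1, Slfn2, Slfn3 and Slfn4, the short and intermediate members. These 4 genes also passed the criteria below, Slfn2 upward and the others downward, so pattern, subgroup and call cannot be told apart. The ETS pattern is present in 7.64% of the 32851 windows of this length before RefSeq genes. Slfn1 and Slfn4 share a run of 15 identical bases around it, ACTTCCTGGAGTGAC, which begins 74 bases before the start of Slfn1 and 73 before that of Slfn4. Slfn2 has 12 of the bases around it in common with Slfn1 (CACTTCCTGGAG), and Slfn3 holds the pattern at 2 places, 60 and 42 bases before its start. The kB pattern was found before Slfn2 alone, as GGGATTTCC at 32 bases before its start, and in 1.43% of all windows. The AP-1 pattern was found before Slfn4 alone and in 6.75% of all windows.

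The ISRE pattern was found before the long members Slfn5, Slfn8 and Slfn9, and in 2.98% of all windows. Slfn8 and Slfn9 carry it in the same letters, TTTCGTTTTC, at 48 and 45 bases before their starts, and their 250 bases are 80.4% identical over an alignment. RefSeq lists a second start for Slfn8, from which the match lies 136 bases away, and the Slfn5 match, GAAAAAGAAA, lies 155 bases before its RefSeq start, which is 753 bp inside the GENCODE gene. The longer kB pattern, GGGA, 2 free bases and TTCC (1.21% of windows), and the STAT pattern TTCNNNGAA, known as GAS (7.02%), were found before none of the 7. No listed match overlapped another. The patterns were chosen with earlier results known, and a match states only that the letters are there.

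The libraries held 37787611 to 41516330 counts. Schlafen genes took 0.160%, 0.154% and 0.156% of the counts of the PBS libraries and 0.206%, 0.204% and 0.207% of the counts of the LPS libraries. All 7 passed the filter on low counts, which kept 15687 genes. Levels below are normalized CPM, counts scaled to library size and by TMM, whose mean factor was 1.15 in PBS and 0.869 in LPS libraries. Genes were called differentially expressed where edgeR's quasi-likelihood test gave an adjusted p under 0.05 and the log2 fold change was beyond 1 in either direction. In bulk RNA, fewer cells of a type and less RNA per cell cannot be told apart.

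LPS raised 1 Schlafen gene and lowered 3 within 1 h. Slfn2, a short member that keeps T cells and monocytes quiescent, rose 3.33-fold, while Slfn1, Slfn3 and Slfn4, the other short member and the intermediate pair, fell to less than 1/2 of their PBS levels. Slfn9 fell by 0.73 on the log2 scale, Slfn5 differed little, and Slfn8 did not pass the test under TMM. The 4 of 7 members past both criteria stand beside 20.9% of all tested genes, with 10.5% higher and 10.4% lower in LPS. At an adjusted p under 0.05 with any fold, 2 members were higher (Slfn2, and Slfn5 with a sign that changed with the scaling) and 4 lower, beside 67.7% of all tested genes (32.9% higher and 34.9% lower), so a change of any size was common in these libraries. The median log2 fold change was -0.73 over the 7 members and -0.01 over all tested genes. Normalized CPM did not overlap between the groups for 6 members, a pattern seen in 70.5% of tested genes, and overlapped for Slfn8.

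**Figure D2:**
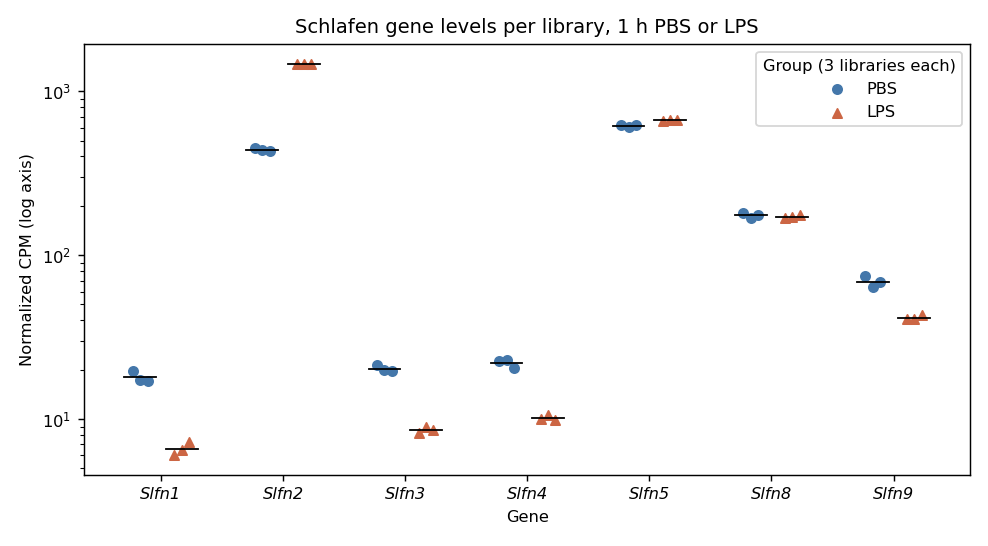
Normalized CPM on a log axis for each of the 7 Schlafen genes, with 1 point per library (circles PBS, triangles LPS, 3 of each) and a line at each group mean. Slfn2 moved from 440.7 to 1467 CPM, Slfn1, Slfn3, Slfn4 and Slfn9 sit lower in every LPS library, and the points of Slfn8 overlap.

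Slfn2 gave 21552, 19654 and 20041 counts in PBS replicates 1 to 3 and 49490, 47808 and 49697 in LPS replicates 1 to 3. Its normalized level went from 440.7 ± 10.4 to 1467 ± 7.41 CPM (SD, n = 3), and the lowest LPS library was more than 3 times the highest PBS library. The log2 fold change was 1.73 ± 0.03 (SE, edgeR adjusted p = 2.80e-18), larger than that of 93.8% of tested genes. Per kb of exon, Slfn2 was the most abundant member in both groups, and its level exceeded that of 99.3% of tested genes in PBS and 99.6% in LPS. Thus a gene that was already among the strongest in the control cells rose further. Within replicate numbers 1, 2 and 3, the log2 ratios of LPS to PBS were 1.70, 1.75 and 1.75.

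Slfn1, a founding member of the family and a regulator of T cell growth, showed the largest fall. It gave 933, 779 and 789 counts in PBS and 202, 210 and 248 in LPS, or 18.0 ± 1.40 against 6.58 ± 0.646 normalized CPM. The log2 fold change was -1.45 ± 0.08 (SE, edgeR adjusted p = 3.37e-11), a PBS level 2.73 times that of LPS. The groups were well apart, and the log2 ratios within replicate numbers 1 to 3 were -1.70, -1.42 and -1.23. The 2 short genes therefore moved in opposite directions, and the ratio of Slfn2 to Slfn1 counts per kb went from 25.9 to 28.5 in PBS libraries to 224.5 to 274.4 in LPS libraries.

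The intermediate genes Slfn3 and Slfn4 are adjacent and both fell. Slfn4, a marker of myeloid cells that is known to be regulated during macrophage activation, gave 1077, 1038 and 948 counts in PBS and 338, 344 and 335 in LPS. It fell from 22.0 ± 1.31 to 10.2 ± 0.355 normalized CPM, with a log2 fold change of -1.12 ± 0.07 (SE, edgeR adjusted p = 4.33e-11). Slfn3, best known from T cells and the gut epithelium, gave 1020, 897 and 904 counts in PBS and 275, 293 and 293 in LPS. It fell from 20.3 ± 0.989 to 8.59 ± 0.391 normalized CPM, with a log2 fold change of -1.24 ± 0.07 (SE, edgeR adjusted p = 1.49e-11). No library of one group reached the other for either gene. Against the stricter null of a log2 fold change of 1 (edgeR's glmTreat), Slfn4 no longer passed (adjusted p = 0.0831). The ratio of Slfn4 to Slfn3 counts per kb was 0.902 to 0.996 in PBS and 0.984 to 1.06 in LPS (exact two-sided permutation p = 0.2 for the difference between the groups).

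Among the long genes the changes were smaller. Slfn9, whose protein has been described as an RNA-cutting enzyme, gave 3551, 2876 and 3169 counts in PBS and 1360, 1333 and 1469 in LPS. Its level was 69.0 ± 5.46 against 41.5 ± 1.44 normalized CPM, a log2 fold change of -0.73 ± 0.05 (SE, edgeR adjusted p = 6.29e-10) that passed the test but not the fold criterion. All 3 LPS libraries were below all PBS libraries. With library size as the sole scaling, its log2 fold change was -1.14 and it passed both criteria, which made 5 members.

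Slfn8, the neighbour of Slfn9 on the same strand, gave 8569, 7651 and 8063 counts in PBS and 5631, 5588 and 5964 in LPS. After scaling, its levels were 174.7 ± 5.31 and 171.4 ± 3.73 CPM, and the libraries of the groups were interleaved. The log2 fold change was -0.03 with a 95% interval from -0.09 to 0.04 (1.96 SE, edgeR adjusted p = 0.495). It was -0.17 under upper quartile scaling and -0.43 under library size alone (adjusted p = 0.000244 and 2.94e-09), neither past the fold criterion. The difference between these neighbours showed in their ratio, since Slfn8 held 3.52 to 3.88 times the counts per kb of Slfn9 in PBS and 5.92 to 6.11 times in LPS (exact two-sided permutation p = 0.1, the smallest that 3 against 3 libraries allow).

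Slfn5, a nuclear member that interferon is known to induce, had the most counts of the family in PBS, with 29528, 27308 and 28777 there and 22142, 21672 and 22739 in LPS. Its direction depended on the scaling, being 616.1 ± 10.2 against 664.0 ± 4.17 normalized CPM under TMM, with a log2 fold change of 0.11 ± 0.03 (SE, edgeR adjusted p = 0.00660), but -0.03 under upper quartile scaling and -0.30 (adjusted p = 1.42e-07) under library size alone. No direction is therefore given for it. Scaling by library size alone moved the median log2 fold change of all tested genes by -0.40, and upper quartile scaling moved it by -0.14. Under library size alone, 29.0% of the genes past the criteria were higher in LPS, against 50.4% under TMM.

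**Figure D3:**
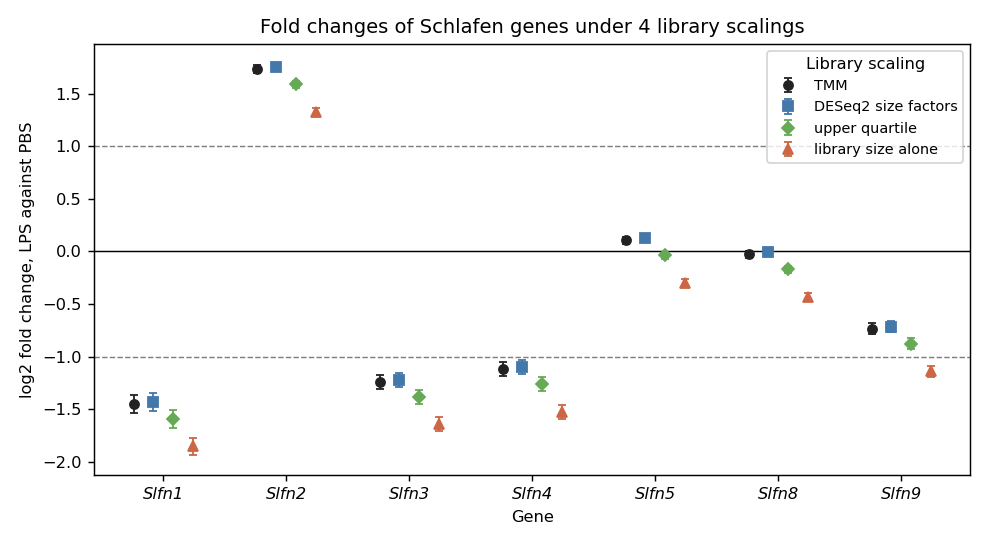
log2 fold change of LPS against PBS on the y axis for each Schlafen gene under 4 library scalings, with bars of ± 1 SE, a solid line at 0 and dashed lines at 1 and -1. Slfn2, Slfn1, Slfn3 and Slfn4 stay past the dashed lines under each scaling, while Slfn5 changes sign between TMM (0.11) and library size alone (-0.30) and Slfn9 crosses -1 under library size alone.

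The share of each member in the summed counts of the 7 genes needs no scaling between libraries. Slfn2 held 32.5%, 32.6% and 32.0% of them in PBS and 62.3%, 61.9% and 61.5% in LPS, a gain of 29.5 percentage points. Slfn5 went the other way, from 45.3 ± 0.663% to 28.0 ± 0.146%, and Slfn2 replaced it as the member with most counts. The shares of Slfn8 (12.8% to 7.24%), Slfn9 (5.06% to 1.75%), Slfn4 (1.62% to 0.429%), Slfn3 (1.49% to 0.363%) and Slfn1 (1.32% to 0.278%) were also lower in every LPS library. Each of these 7 differences had an exact two-sided permutation p of 0.1, also after adjustment over the 7 genes, and 3 against 3 libraries cannot give less. Since shares sum to 100, a larger Slfn2 lowers the rest: with the total taken without Slfn2, the share of Slfn5 was 6.63 points higher in LPS (exact two-sided permutation p = 0.1), and that of Slfn8 overlapped between the groups with a difference of 0.0132 points (p = 0.9). Under TMM, the family as a whole went from 1361 ± 29.2 to 2369 ± 3.22 normalized CPM. The 6 members other than Slfn2 summed to 920.1 ± 20.7 and 902.2 ± 9.94 on that scale. These sums depend on the scaling. As a share of library counts, the family took 0.154% to 0.160% in PBS and 0.204% to 0.207% in LPS. Under library size alone, each of the 6 had a negative log2 fold change, from -1.85 (Slfn1) to -0.30 (Slfn5).

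**Figure D4:**
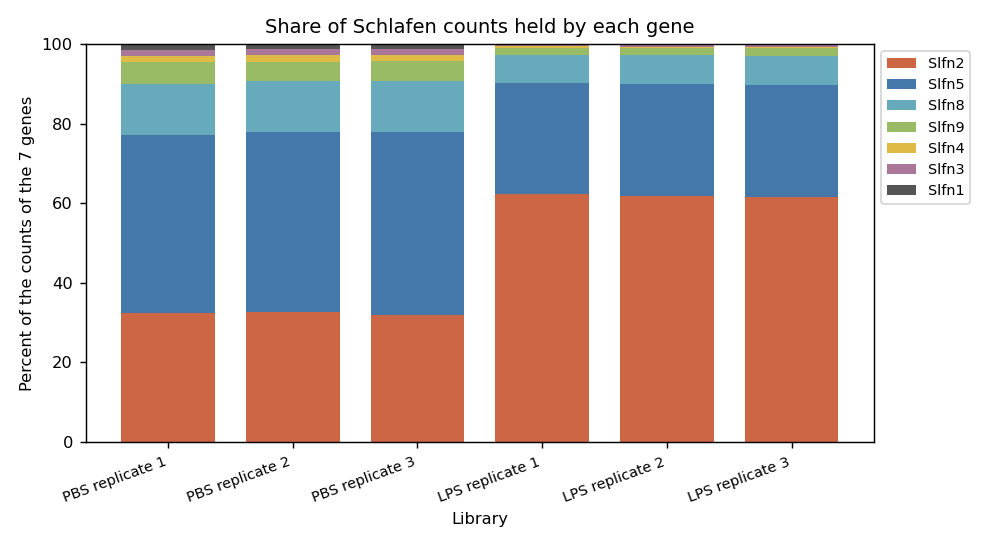
Stacked bars of the percent of the counts of the 7 Schlafen genes held by each gene, 1 bar per library with 3 PBS and 3 LPS replicates. The Slfn2 segment is 32.4% of the PBS bars and 61.9% of the LPS bars on average, and the Slfn5 segment 45.3% and 28.0%.

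Levels per kb of exon ordered the members as Slfn2, Slfn5, Slfn8, Slfn9 and Slfn1, followed by Slfn3 and Slfn4. In PBS this scale ran from 264.8 ± 6.23 CPM per kb for Slfn2 and 97.4 ± 1.62 for Slfn5 to 5.95 ± 0.290 for Slfn3 and 5.56 ± 0.331 for Slfn4. In LPS it ran from 881.3 ± 4.45 for Slfn2 and 105.0 ± 0.659 for Slfn5 to 2.56 ± 0.0895 for Slfn4 and 2.52 ± 0.115 for Slfn3. The ranges of libraries overlapped for Slfn3 and Slfn4 in both groups and for no other neighbours in the order. Slfn2 stood 2.65 to 2.77 times above Slfn5 per kb in PBS and 8.31 to 8.50 times above it in LPS. The 3 genes that fell had levels per kb above those of 75.7% (Slfn1), 64.3% (Slfn3) and 62.8% (Slfn4) of tested genes in PBS, and above those of 52.5%, 46.0% and 46.3% in LPS.

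Some reads cannot be assigned to 1 member with certainty, because members share sequence, and how multi-mapping reads were counted is not given in the sources used here. Of all stretches of read length in the annotated transcripts, Slfn9 shared 2.99% with the pseudogene Slfn10-ps and 0.788% with Slfn8, Slfn8 shared 2.36% with Slfn10-ps and 1.10% with Slfn9, and Slfn3 shared 2.72% with the pseudogene Gm11427. Slfn5 shared 6.15% with its antisense gene Slfn5os, which overlaps 559 bp of its exons, and the strand setting of the counting is not given either. Slfn2 and Slfn1 were nearly free of such sharing, at 0.064% and 0%. Shorter stretches of 31 bases were shared more. Slfn8 shared 19.1% of these with Slfn9, Slfn3 15.1% with Slfn4, Slfn2 6.98% with Slfn4, and Slfn1 1.64% with Slfn3. Slfn5os itself gave 13, 4 and 10 counts in PBS and 10, 4 and 12 in LPS (log2 fold change 0.41, edgeR adjusted p = 0.457), far fewer than Slfn5.

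Other genes with a Schlafen name were weakly expressed or of uncertain direction. The pseudogene Slfn10-ps gave 2179, 2029 and 2053 counts in PBS and 1936, 1956 and 2053 in LPS, with a log2 fold change of 0.40 ± 0.04 (SE, edgeR adjusted p = 5.41e-08) under TMM and -0.01 under library size alone. Slfn14, a long member known from platelets and red cell precursors, gave 0, 0 and 1 counts in PBS and 2, 1 and 0 in LPS, at or under the floor of 3 counts in every library. Slfnl1, a Schlafen-like gene on chromosome 4, gave 4, 8 and 6 counts in PBS and 2, 1 and 2 in LPS and was not tested. The pseudogene Gm11427, which has no such name, had a log2 fold change of -0.61 (edgeR adjusted p = 1.73e-05). The value ranged from -1.02 to -0.52 in the alternative settings. It had the same sign as that of Slfn3, with which Gm11427 shares sequence.

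Because Schlafen genes are known as interferon-inducible, the interferon pathway was described beside them. The ligand gene Ifnb1 gave 6, 2 and 1 counts in PBS and 1318, 1297 and 1447 in LPS, a log2 fold change of 9.22 ± 0.15 (SE, edgeR adjusted p = 1.31e-19) that became 10.13 without PBS replicate 1. Of the other ligands listed, Ifna4, Ifna2, Ifng and Ifnl3 gave 0 to 6 counts and were not tested. The receptor gene Ifnar1 had a log2 fold change of 0.85 and Ifnar2 one of 0.34 under TMM and -0.06 under library size alone. Among the transducers and brakes, Jak2 (3.31), Irf1 (2.12) and Socs1 (3.16) rose and Stat2, a subunit of the interferon-activated factor ISGF3, fell by 1.56 on the log2 scale. Irf9, which encodes another subunit of ISGF3, was at -0.38. In all, 4 of the 17 tested genes of this list rose, 1 fell and 12 did not pass both criteria, with a median of 0.31, beside 10.5% higher and 10.4% lower of all tested genes. Ifnar1, Ifnar2 and Irf9 are named here after their values were seen.

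Among interferon-stimulated genes outside the family, more rose than fell past the criteria under TMM, and most did not pass them. Of 30 listed and tested, 6 rose, 1 fell and 23 did not pass both criteria, beside 10.5% higher and 10.4% lower of all tested genes, with a median log2 fold change of -0.09. The genes that rose were the chemokine gene Cxcl10 (5.02), Ifi205 (3.32), Oasl1 (2.32), the RNA sensor Ifih1 (1.80), Isg15 (1.52) and Rsad2 (1.24), and the one that fell was Ifit2 (-1.08). Isg15 and Rsad2 are named after their values were seen. At an adjusted p under 0.05 with any fold, 10 were higher, 15 lower and 5 neither, beside 32.9% higher and 34.9% lower of all tested genes. The split past the criteria depended on the scaling, with 5 up and 6 down under library size alone and 6 up and 5 down under upper quartile scaling.

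The early NF-kB targets showed what LPS did to its best known genes in the same libraries. All 20 listed genes rose past both criteria, beside 10.5% of all tested genes higher in LPS. The list was chosen with earlier results of these data known. Its log2 fold changes ran from 2.21 to 11.77 with a median of 4.31. Il1b, Il6, Cxcl1 and Cxcl2, which encode inflammatory cytokines and chemokines, had the largest values, and Tnf rose by 6.83. Slfn2, with 1.73, lay below the lowest gene of that list. Il6 went from 11.63 to 12.22 without PBS replicate 3.

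**Figure D5:**
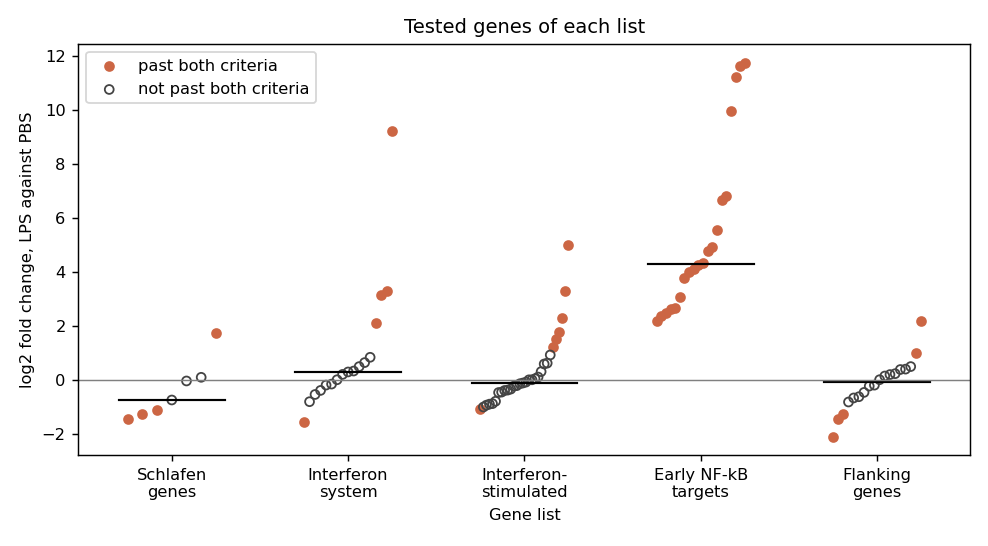
log2 fold change of LPS against PBS on the y axis for the tested genes of 5 lists, 1 point per gene in order of its value, filled where the gene passed both criteria, with a line at the list median. The Schlafen genes hold 1 filled point above 0 and 3 below it, and all 20 NF-kB targets are filled and above 0.

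The neighbourhood of the cluster did not share 1 direction. Of the 41 other genes between the members or within 250 kb of the outermost ones, Slfn10-ps, Slfn5os and Slfn14 included, 18 were tested, 2 rose, 3 fell and 13 did not pass both criteria, with a median log2 fold change of -0.08. Over all tested genes 10.5% rose and 10.4% fell, and under library size alone 1 flanking gene was higher and 6 were lower. Rffl, which encodes a ubiquitin ligase, rose by 2.19 on the log2 scale. The small nuclear RNA gene Gm23444, at 1.01, lay at the threshold, passed in 6 of 16 alternative settings and ranged from 0.60 to 1.10 in them. AA465934 (-2.09) and Cct6b (-1.27) fell, but had few counts and are named after their values were seen.

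Genes outside the family with the most similar pattern were found for the 4 members past the criteria, by the Euclidean distance between log2 CPM values centred on each gene's own mean over the 6 libraries, among 12125 genes. Nearest to Slfn2 were Dcbld2 (distance 0.0473), Clec4d (0.0573) and Spag9 (0.0676). Nearest to Slfn1 were Gm10033 (0.0696), Gcfc2 (0.111) and Zfp40 (0.133). Nearest to Slfn3 were 1110002L01Rik (0.0561) and 1700030K09Rik (0.0741), and nearest to Slfn4 were Tor4a (0.0921), Dbp (0.0950) and 5730409E04Rik (0.101). The 6 libraries form 2 groups, so a like fold change is enough for a small distance.

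Markers checked the labelled cell type. All 10 macrophage markers were detected in every library, with a summed level of 34292 to 35502 CPM in PBS and 41041 to 41537 in LPS. Lyz2 made up most of this sum, with means of 23272 CPM in PBS and 24224 in LPS. Cd14, which passed the criteria, went from a mean of 398.0 to 3623 CPM, and Fcgr1 was lower in LPS (log2 fold change -0.48). Markers of other cells were low: the summed level of the 7 neutrophil markers was 36.8 to 39.2 CPM in PBS and 49.3 to 51.3 in LPS, with Ly6g at or under 3 counts in every library. That of the 6 T cell markers was 21.2 to 23.0 and 31.6 to 31.9, of which Cd4 alone made up 20.1 to 21.9 and 30.1 to 30.5 while Cd3e gave 2 to 5 counts. That of the 4 dendritic cell markers was 3.15 to 4.01 and 9.62 to 10.6. Of these, 4 of 4 were past the criteria and higher in LPS, beside 10.5% of all tested genes. Their counts were low, with Xcr1 at 2, 1 and 2 in PBS and 27, 17 and 15 in LPS. The 3 stroma markers summed to 7.33 to 8.21 and 9.87 to 11.3. The 5 B cell markers summed to 2.88 to 3.17 and 2.88 to 3.64, the 4 megakaryocyte and platelet markers to 2.84 to 3.59 and 3.64 to 4.38, with Gp1bb at or under 3 counts, and the 3 erythroid markers to 0.0433 to 0.199 and 0 to 0.0919. Markers above 3 counts in every library numbered 6 of 7 for neutrophils, 3 of 6 for T cells, 3 of 4 for dendritic cells, 3 of 3 for stroma, 4 of 5 for B cells, 2 of 4 for megakaryocytes and 0 of 3 for erythroid cells. The part of other cells in the Schlafen values was not tested.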

How the data were processed

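The 6 libraries, 3 PBS and 3 LPS, were made from BMDM RNA with a stranded total RNA kit and read in pairs. The authors aligned reads to GRCm38 with HISAT2 2.1.0 and counted them per gene with featureCounts 2.0.0, and the deposited values are raw counts. The submitters' notes also name FastQC 0.11.9 and SAMtools 1.17. The annotation release, strand setting and handling of multi-mapping reads are not given in the sources used here. Strand and multi-mapping settings could move counts between overlapping or similar genes.

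Groups came from the labels. Of 55335 identifiers, 55154 matched GENCODE M21 with the version ignored, which gave symbols, positions and exon lengths. Totals were 37787611 to 41516330 counts, and the floor of 3 counts covers counting error only, as no molecular identifiers were used. In R 4.3.3, edgeR 4.0.16 was run with filterByExpr, TMM scaling and its quasi-likelihood test, and p-values were adjusted over 15687 genes by Benjamini-Hochberg (common biological coefficient of variation 0.0426). The criteria are those of the study, which used DESeq2. SE came from the quasi-likelihood F statistic. Permutation tests over libraries used SciPy 1.17.1.

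The members, gene lists, patterns and gene ratios were chosen with earlier results of these data known. Genes named were all members, other Slfn genes, Ifnb1, Tnf and, per list, the 4 largest rises and falls past the criteria with a mean of at least 50 counts, plus for each member past the criteria the 3 nearest genes by distance. Gm11427 is named for the sequence it shares with Slfn3. Promoter sequences are those of RefSeq (GRCm38.p6), which held all 7 members. Protein sequences were not used here, and some genes that the rule would name are not reported here.

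The labels call the replicate number a batch, so the numbers could pair the samples, but the labels do not say that they do. Deviations of same-numbered libraries correlated at -0.0139, 0.0822 and 0.0387, and those of differently numbered libraries at -0.0817 to 0.0446. The study describes pairwise comparisons and does not state a block, so the model had none, and a fit with it was an alternative. Other alternatives were DESeq2 size factors, upper quartile scaling, library size alone, 2 other filters, DESeq2 1.42.0, limma voom (limma 3.58.1), glmTreat, omission of the 10 most abundant genes and omission of each library. Tested on simulated counts for 15687 genes with 200 changed by a log2 fold change of 2, of which 190 passed the filter, edgeR recovered 190, DESeq2 187 and limma voom 190, with 1, 0 and 1 false calls.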

Additional observations from a re-analysis of the deposited data

How the results depend on the processing

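The number of Schlafen genes past the criteria was 4 in the reported analysis and in 14 of 16 alternatives. It was 5 under library size alone, where Slfn9 (-1.14) passed, and 3 under glmTreat, where Slfn4 did not. With the replicate block it was 4. The member log2 fold changes were then -1.45 (Slfn1), 1.73 (Slfn2), -1.24 (Slfn3), -1.12 (Slfn4), 0.11 (Slfn5), -0.03 (Slfn8) and -0.73 (Slfn9). The fit with the block changed 0 calls among the 133 listed or similar-pattern genes tested and 11 among all 15687. Directions that turned were those of Slfn5 (-0.30 under library size alone, -0.035 under upper quartile scaling), Slfn10-ps (-0.0082) and Ifnar2 (-0.064) under library size alone, and the share of Slfn5 (6.63 points) when Slfn2 was left out of the total, where the share of Slfn8 differed by 0.0132 points with overlapping libraries. The count over all genes was 3277, and 2168 with at least 10 counts required in every library, where fewer genes were tested. Interferon-stimulated genes past the criteria went from 7 to 11 under library size alone and 11 under upper quartile scaling. Flanking genes went from 5 to 2 with at least 10 counts in every library and 3 under glmTreat, and were 7 under library size alone. Leaving out each library in turn gave 3370 to 3420 genes in all, 4 Schlafen genes, 5 interferon system genes, 7 to 8 interferon-stimulated genes, 20 NF-kB targets, 4 to 5 flanking genes and a Slfn2 share gain of 29.3 to 29.7 points. Without 1 library, log2 fold changes ranged from -1.53 to -1.38 for Slfn1, 1.72 to 1.75 for Slfn2, -1.27 to -1.20 for Slfn3 and -1.17 to -1.09 for Slfn4. The cause of these differences was not tested except where named. Ifnb1 and Il6 gave no value with at least 10 counts required in every library. Counts of Slfn14 and Slfnl1 were too low for the test, and those of Slfn5os (4 to 13) gave a wide interval.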
